A study of Homo sapiens with 6 samples.

Results

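The bone morphogenetic protein (BMP), growth and differentiation factor (GDF) and fibroblast growth factor (FGF) genes were described together with the activin, nodal and TGF-beta ligand genes and 4 genes for secreted antagonists. The 49 genes were taken by name, with earlier results of these data known. All 49 were found among the 19974 protein-coding genes of chromosomes 1 to 22 and X in the RefSeq gene table used here (GRCh38.p14). They comprise 9 BMP genes, 9 GDF genes, 6 activin, nodal and TGF-beta genes, 4 antagonist genes, 15 paracrine FGF genes, 3 endocrine FGF genes and 3 genes for FGF homologous factors, which stay inside the cell. Each gene was measured over the gene plus 5 kb on both sides, called its window here.

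The chromatin came from ACHN, a human renal carcinoma cell line, either with ZCCHC8 knocked out (ZCCHC8-KO) or with ZCCHC8 intact (ZCCHC8-WT). ZCCHC8 is the scaffold of the nuclear exosome targeting complex, which hands short-lived nuclear RNAs to the RNA exosome. ChIP was done against H3K27me3, the repressive histone mark laid down by Polycomb repressive complex 2 (PRC2), and against EZH2, the catalytic subunit of PRC2. Each antibody and genotype has 1 library, and 1 input library was made per genotype, so both antibodies of a genotype share an input. No difference between genotypes therefore has a replicate check, none was tested, and values are given as a description of these 4 libraries. The labels do not say whether the knockout cells were 1 clone or a pool.

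BMPs, activins, TGF-betas and most GDFs are secreted dimers that bind paired serine/threonine kinase receptors and act through SMAD proteins. Antagonists such as Noggin and Gremlin bind the ligands outside the cell and keep them from the receptors. Most FGFs bind FGF receptors together with heparan sulphate and act on nearby cells, whereas the endocrine FGFs need a Klotho co-receptor and act at a distance. Many genes of these families are known Polycomb targets, and in the developing kidney BMP7, FGF8, FGF9, FGF20 and GREM1 are known for roles in nephron progenitors and the branching ureteric bud.

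The deposited data are peak positions, not read coverage, and no label or file header gives the read depth. The H3K27me3 lists held 69840 peaks in ZCCHC8-KO and 93095 in ZCCHC8-WT, and the EZH2 lists 19566 and 30734. The lowest score listed was 4 in both ZCCHC8-KO lists and 5 in both ZCCHC8-WT lists, so the lists did not reach down to the same score. Neither ZCCHC8 nor SUZ12 had a peak, while EED and EZH2 had 173 and 161 bp of EZH2 peaks in ZCCHC8-WT alone, and peak lists cannot check the knockout itself. Of 8 genes used as markers of a renal epithelial line, 6 had no peak in any list, where 56.9% of all protein-coding genes had none. CDH1 and KRT8 had 334 and 190 bp of EZH2 peaks in ZCCHC8-WT alone. These lists hold no expression, so the identity of the cells was not checked further.

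Each antibody marked a larger share of the ligand and antagonist genes than of all protein-coding genes. A gene was counted as marked if at least 1 bp of a peak lay in its window. H3K27me3 marked 21 of the 49 genes in ZCCHC8-KO (42.9%, exact 95% Clopper-Pearson interval 28.8 to 57.8), against 23.2% of all protein-coding genes. In ZCCHC8-WT it marked 20 (40.8%, 27 to 55.8), against 26.1% of all. EZH2 marked 19 genes in ZCCHC8-KO (38.8%, 25.2 to 53.8), against 18.4% of all, and 26 in ZCCHC8-WT (53.1%, 38.3 to 67.5), against 27% of all. With scores of 7 or more, H3K27me3 marked 8 genes in ZCCHC8-KO and 19 in ZCCHC8-WT, and EZH2 6 and 19. The shares of all protein-coding genes at that score are not given here, so these counts cannot be set against a background. The intervals cover counting error only. The mean share of the window covered by H3K27me3 peaks was 2.17% in ZCCHC8-KO and 1.81% in ZCCHC8-WT for the 49 genes, and 0.690% and 0.825% for all genes. For EZH2 the means were 0.855% and 0.991% for the 49 genes, and 0.233% and 0.315% for all genes. The median share was 0 for the 49 genes in every list except EZH2 in ZCCHC8-WT (0.185%), and 0 for all genes in every list.

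By ratio, the contrast with other genes was widest among short genes. Genes were split by window length, a description added after the values had been seen. Of the 26 ligand and antagonist genes with a window under 25 kb, H3K27me3 marked 46.2% in ZCCHC8-KO and 42.3% in ZCCHC8-WT, compared with 16.6% and 17.2% of the 7567 protein-coding genes of that length. EZH2 marked 9 of the 26 in ZCCHC8-KO (34.6%) and 13 in ZCCHC8-WT, compared with 9.13% and 12.4% of all genes of that length. Of the 8 with a window of 100 kb or more, 2 had no peak in any list, and of all genes of that length 24.2% had none.

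Covered lengths differed in opposite directions at individual genes, and their sum for H3K27me3 was nearly equal between genotypes. The merged windows of the 49 genes held 37230 bp of H3K27me3 peaks in ZCCHC8-KO (120 peaks) and 37202 bp in ZCCHC8-WT (125 peaks), a ratio of 1.00. The windows of all protein-coding genes had a ratio of 0.722. EZH2 peaks covered 14554 bp in ZCCHC8-KO (57 peaks) and 15817 bp in ZCCHC8-WT (66 peaks), a ratio of 0.920, against 0.649 for all gene windows. The H3K27me3 ratio was 0.873 when FGF23 and FGF6, neighbours on chromosome 12, were left out, and the EZH2 ratio was then 0.879. When the 3 FGF homologous factor genes, the longest of the set, were left out, the ratios were 1.03 and 0.928. The ratios depended on low-scoring peaks, since with scores of 7 or more they were 0.416 for H3K27me3 and 0.264 for EZH2, against 0.347 and 0.263 for all gene windows. With the lists of each antibody brought to equal size by score they were 1.35 and 1.30, against 0.858 and 0.913 for all gene windows.

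A gene was called lower or higher in ZCCHC8-KO where the larger of its covered lengths was at least 500 bp and at least 2 times the smaller. By this rule H3K27me3 was lower at 6 of the 49 genes (12.2%; background 6.84% of all protein-coding genes), namely BMP2, BMP3, FGF1, FGF10, FST and GREM1. It was higher at 3 (6.12%; background 3.54%), namely FGF6, GDF2 and GDF6. EZH2 was lower at 3 genes (6.12%; background 5.92%), BMP4, FGF14 and GDF9, and higher at 4 (8.16%; background 1.93%), BMP3, FGF10, FGF12 and FGF23. The share lower for EZH2 was thus near the background. To pass the rule a gene needed 500 bp or more in some list, which 21 of the 49 had. Among these calls, H3K27me3 at BMP2 and at FGF10 passed the rule under every alternative run, and each of the other 14 calls was lost in at least 1. The median difference in covered share was 0 for the 49 genes and for all genes, with both antibodies.

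**Figure D1:**
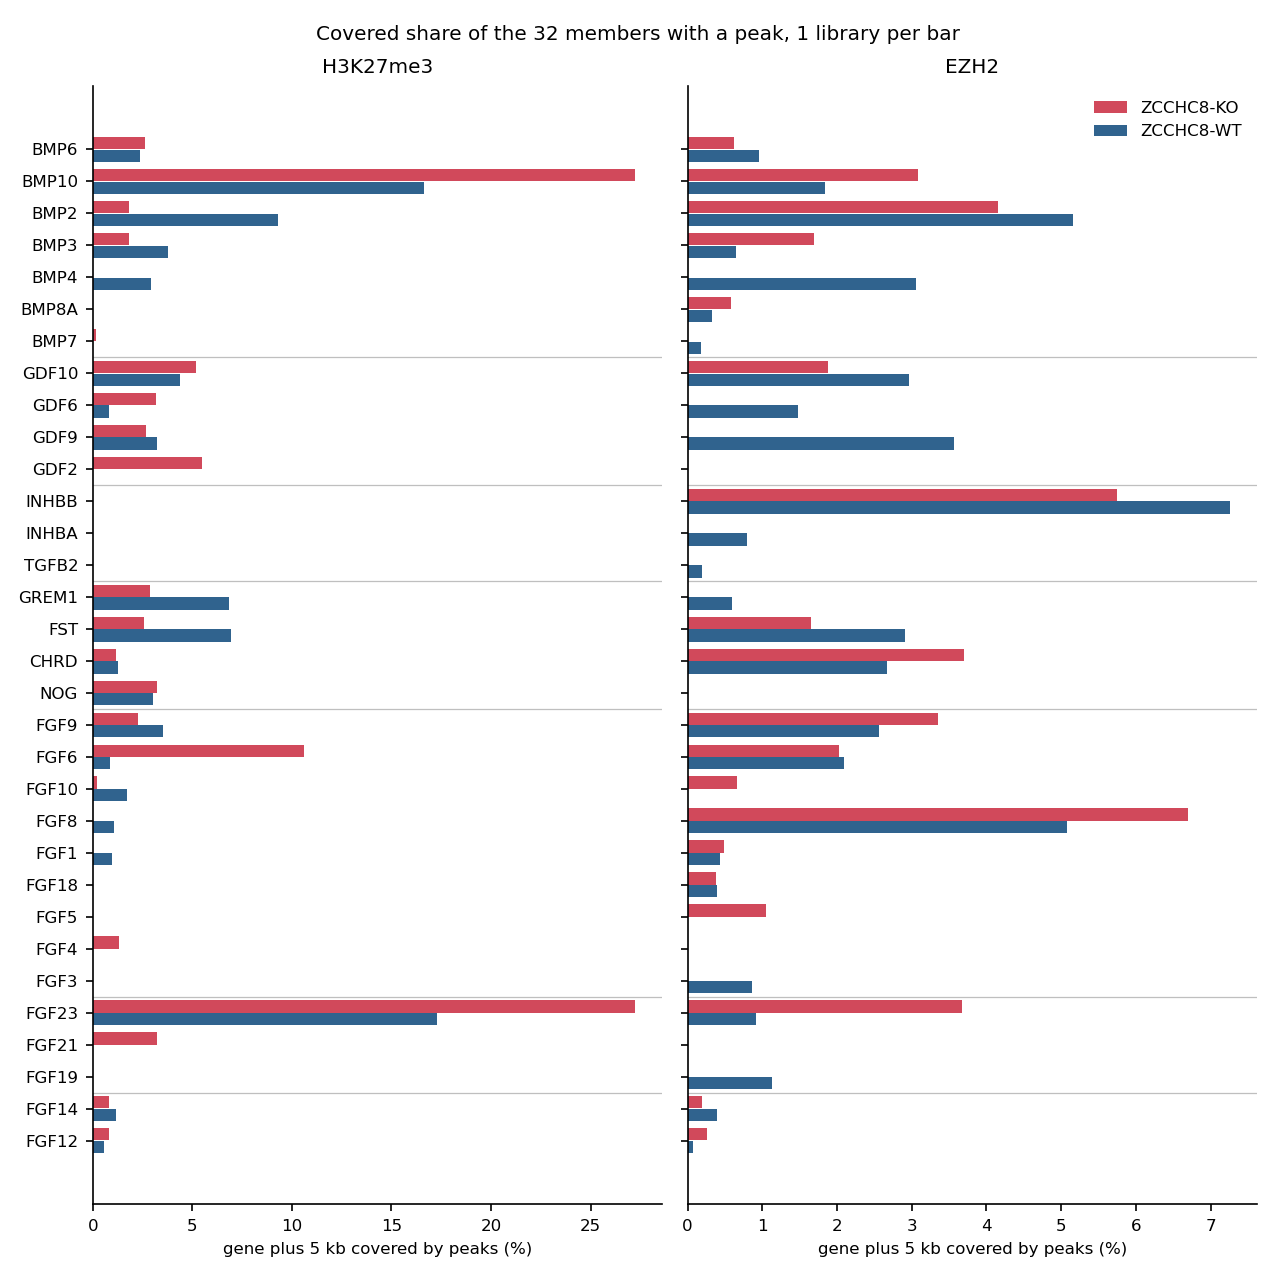
Percent of each gene's window (gene plus 5 kb on both sides) covered by H3K27me3 peaks (left) and EZH2 peaks (right) for the 32 genes with a peak in some list, ordered by family. Red bars are ZCCHC8-KO and blue bars ZCCHC8-WT, 1 library each. FGF23 and BMP10 stand out for H3K27me3 at 27.2% each in ZCCHC8-KO, and FGF8 and INHBB have the largest EZH2 shares in ZCCHC8-KO.

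Among the BMP ligands, BMP10, BMP6 and BMP2 carried most of the peaks. BMP10, a heart ligand needed for trabeculation, lies at chr2:68860909-68871397. H3K27me3 peaks covered 5580 bp of its window in ZCCHC8-KO (11 peaks) and 3404 bp in ZCCHC8-WT (10 peaks), which is 27.2% and 16.6%. By covered share BMP10 ranked 25th of 19974 genes in ZCCHC8-KO and 140th in ZCCHC8-WT. EZH2 peaks covered 632 bp in ZCCHC8-KO (3 peaks) and 377 bp in ZCCHC8-WT (2 peaks), or 3.08% and 1.84%. H3K27me3 thus covered more of BMP10 in ZCCHC8-KO, by a factor of 1.64, without reaching the 2-fold rule. The highest H3K27me3 score at BMP10 was 9 in ZCCHC8-KO and 14 in ZCCHC8-WT, and the highest EZH2 score 6 and 7.

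BMP10 sat in a wider stretch of H3K27me3 peaks. The 50 kb on its side of higher coordinates were covered at 15.7% in ZCCHC8-KO and 17.7% in ZCCHC8-WT, and the 50 kb on the other side at 4.26% and 10.1%. Its neighbour ARHGAP25 had 12.6% and 13.5% of its window covered. GKN2 and GKN1, stomach mucosal protein genes farther along the chromosome, had no H3K27me3 peak in either genotype. The higher covered share in ZCCHC8-KO was therefore seen at BMP10 and not in the flanks or at ARHGAP25.

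BMP2, an inducer of bone and a regulator of heart and limb development, lies at chr20:6767686-6780246. H3K27me3 peaks covered 414 bp of its window in ZCCHC8-KO (2 peaks) and 2094 bp in ZCCHC8-WT (7 peaks), or 1.84% and 9.28%. EZH2 peaks there covered 936 bp in ZCCHC8-KO (2 peaks) and 1165 bp in ZCCHC8-WT (5 peaks), or 4.15% and 5.16%. H3K27me3 covered less of BMP2 in ZCCHC8-KO, by the 2-fold rule and under every alternative processing, whereas the EZH2 lengths did not pass the rule. Both ZCCHC8-KO EZH2 peaks overlapped ZCCHC8-WT EZH2 peaks, but no H3K27me3 peak of BMP2 overlapped between genotypes. The highest H3K27me3 score was 6 in ZCCHC8-KO and 7 in ZCCHC8-WT, and the highest EZH2 score 7 and 8. The 50 kb below and above the BMP2 window also had fewer H3K27me3 bases in ZCCHC8-KO, with none on either side, against 640 bp and 895 bp in ZCCHC8-WT. Over the whole of chromosome 20 the ratio of H3K27me3 covered length was 1.43.

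BMP6, which regulates iron balance through hepcidin in the liver, has a window of 165630 bp. H3K27me3 peaks covered 4374 bp in ZCCHC8-KO (16 peaks) and 3936 bp in ZCCHC8-WT (15 peaks), a share of 2.64% and 2.38%. EZH2 peaks covered 1037 bp in ZCCHC8-KO (4 peaks) and 1578 bp in ZCCHC8-WT (6 peaks), a share of 0.626% and 0.953%. Neither antibody passed the rule at BMP6, and the peaks lay at different places, as only 1 H3K27me3 peak and no EZH2 peak overlapped between genotypes. The EZH2 peak nearest to the gene start was 17329 bp downstream in ZCCHC8-KO and 680 bp upstream in ZCCHC8-WT. The highest scores at BMP6 were 6 in ZCCHC8-KO and 9 in ZCCHC8-WT for H3K27me3, and 8 and 9 for EZH2.

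BMP3, an atypical BMP that opposes bone formation, had 674 bp of H3K27me3 peaks in ZCCHC8-KO (3 peaks) and 1393 bp in ZCCHC8-WT (6 peaks). It had 626 bp of EZH2 peaks in ZCCHC8-KO (2 peaks) and 241 bp in ZCCHC8-WT (1 peak). BMP3 was thus lower for H3K27me3 and higher for EZH2 in ZCCHC8-KO. Both calls turned round in alternatives given in the closing section. Over the whole of chromosome 4 the ratio of covered length was 0.496 for H3K27me3 and 0.607 for EZH2, against 0.484 and 2.60 at BMP3. For H3K27me3, a difference at BMP3 and one of the chromosome therefore cannot be told apart. The highest scores at BMP3 were 5 in ZCCHC8-KO and 9 in ZCCHC8-WT for H3K27me3, and 6 and 7 for EZH2. BMP4, which acts in mesoderm, limb and kidney development, had no peak of either antibody in ZCCHC8-KO, against 499 bp of H3K27me3 peaks (1 peak) and 524 bp of EZH2 peaks (3 peaks) in ZCCHC8-WT. The nearest of its EZH2 peaks in ZCCHC8-WT lay 432 bp upstream of the start used here. That start lies inside the annotated BMP4 gene, and so does this peak.

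The remaining BMP genes had little or nothing. BMP8A, known from germ cell development in mice, had 279 bp of EZH2 peaks in ZCCHC8-KO and 158 bp in ZCCHC8-WT, and no H3K27me3 peak. BMP7, which keeps nephron progenitors alive, had 171 bp of H3K27me3 peaks in ZCCHC8-KO and none in ZCCHC8-WT, and no EZH2 bases in ZCCHC8-KO against 200 bp in ZCCHC8-WT. BMP5, a ligand of skeletal development, and BMP15, an oocyte factor on the X chromosome, had no peak in any list.

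Among the GDF genes, GDF10, GDF9, GDF6 and GDF2 were marked. No peak in any list was found for 5 of 9 (55.6%), near the 56.9% of all protein-coding genes. GDF10, also called BMP3B, had 1213 bp of H3K27me3 peaks in ZCCHC8-KO (4 peaks) and 1019 bp in ZCCHC8-WT (4 peaks), or 5.19% and 4.36% of its window. Its EZH2 peaks covered 441 bp in ZCCHC8-KO (2 peaks) and 693 bp in ZCCHC8-WT (3 peaks), or 1.89% and 2.96%. GDF10 was the GDF gene marked in all 4 lists, and neither antibody passed the rule there. Its highest scores were 8 in ZCCHC8-KO and 11 in ZCCHC8-WT for H3K27me3, and 6 and 7 for EZH2. GDF2, which encodes BMP9, a ligand of endothelium made in the liver, is the neighbour of GDF10, and their windows overlap by 1124 bp. It had 828 bp of H3K27me3 peaks in ZCCHC8-KO (2 peaks) and none in ZCCHC8-WT, and no EZH2 peak.

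GDF6, a factor of joint and eye development, had 901 bp of H3K27me3 peaks in ZCCHC8-KO (3 peaks) and 236 bp in ZCCHC8-WT (1 peak). Its EZH2 peaks covered no base in ZCCHC8-KO and 421 bp in ZCCHC8-WT. GDF9, an oocyte growth factor, had 416 bp of H3K27me3 peaks in ZCCHC8-KO and 498 bp in ZCCHC8-WT, and both peaks of each genotype overlapped. For EZH2, GDF9 had no peak in ZCCHC8-KO and 552 bp in ZCCHC8-WT (2 peaks). GDF2, GDF6 and GDF9 had no EZH2 peak in ZCCHC8-KO, where EZH2 marked 18.4% of all protein-coding genes. Over the GDF windows together, the ratio of ZCCHC8-KO to ZCCHC8-WT covered length was 1.92 for H3K27me3 and 0.265 for EZH2.

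The activin, nodal and TGF-beta genes had no H3K27me3 peak in their windows in either genotype. Of all protein-coding genes, 23.2% were marked in ZCCHC8-KO and 26.1% in ZCCHC8-WT. EZH2 marked 1 of the 6 in ZCCHC8-KO and 3 in ZCCHC8-WT, against 18.4% and 27% of all protein-coding genes. INHBB, the activin beta B subunit gene at chr2:120346136-120351803, had 901 bp of EZH2 peaks in ZCCHC8-KO (4 peaks) and 1137 bp in ZCCHC8-WT (4 peaks). These covered 5.75% and 7.26% of its window, ranks of 147th in ZCCHC8-KO and 118th in ZCCHC8-WT among 19974 genes. The flanks of 50 kb on both sides of INHBB were covered by EZH2 peaks at 0.973% and 1.21%, so the EZH2 peaks were denser in the INHBB window than around it. H3K27me3 peaks covered 1.10% of these flanks in ZCCHC8-KO and 0.978% in ZCCHC8-WT. The nearest H3K27me3 peak lay 12224 bp from INHBB in ZCCHC8-KO and 5017 bp in ZCCHC8-WT. The ZCCHC8-WT peak was just outside the window, so the lack of H3K27me3 at INHBB depends on where the window ends. INHBA, the activin beta A gene, had 243 bp and TGFB2 212 bp of EZH2 peaks in ZCCHC8-WT, and neither had a peak in ZCCHC8-KO. NODAL, a mesoderm and left-right signal, and the TGF-beta genes TGFB1 and TGFB3 had no peak in any list.

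All 4 antagonist genes had an H3K27me3 peak in both genotypes, against 23.2% of all protein-coding genes in ZCCHC8-KO and 26.1% in ZCCHC8-WT. GREM1, which encodes the BMP antagonist Gremlin, lies at chr15:32718004-32745106. Its H3K27me3 peaks covered 1065 bp in ZCCHC8-KO (3 peaks) and 2542 bp in ZCCHC8-WT (9 peaks), or 2.87% and 6.85% of the window. In ZCCHC8-KO all 3 lay upstream of the gene, while in ZCCHC8-WT 6 of the 9 lay in the gene. EZH2 peaks covered no base in ZCCHC8-KO and 223 bp in ZCCHC8-WT (1 peak). GREM1 was lower for H3K27me3 in ZCCHC8-KO, with highest scores of 7 in ZCCHC8-KO and 11 in ZCCHC8-WT, and its EZH2 peak scored 7.

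FST, which encodes the activin-binding protein follistatin, had 426 bp of H3K27me3 peaks in ZCCHC8-KO (2 peaks) and 1146 bp in ZCCHC8-WT (4 peaks), or 2.58% and 6.94%. Its EZH2 peaks covered 272 bp in ZCCHC8-KO (1 peak) and 481 bp in ZCCHC8-WT (2 peaks). The EZH2 peak nearest to the FST start lay 6761 bp downstream in ZCCHC8-KO and 1082 bp upstream in ZCCHC8-WT. FST thus joined GREM1 among the genes lower for H3K27me3 in ZCCHC8-KO. CHRD, which encodes the BMP antagonist Chordin, had 243 bp of H3K27me3 peaks in ZCCHC8-KO and 260 bp in ZCCHC8-WT, and 766 bp and 552 bp of EZH2 peaks. NOG, which encodes Noggin, had 384 bp of H3K27me3 peaks in ZCCHC8-KO and 360 bp in ZCCHC8-WT, in peaks that overlapped, and no EZH2 peak. Over the antagonist windows together the ratio was 0.492 for H3K27me3 and 0.826 for EZH2.

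Of the 15 paracrine FGF genes, 9 had a peak in some list and 40% had none, against 56.9% of all protein-coding genes without one. FGF6, a skeletal muscle FGF at chr12:4434142-4445815, had 2299 bp of H3K27me3 peaks in ZCCHC8-KO (6 peaks) and 186 bp in ZCCHC8-WT (1 peak), or 10.6% and 0.858%. No H3K27me3 peak of FGF6 overlapped between genotypes. EZH2 peaks covered 440 bp in ZCCHC8-KO (2 peaks) and 454 bp in ZCCHC8-WT (2 peaks). In ZCCHC8-KO both EZH2 peaks lay in the gene and in ZCCHC8-WT both lay upstream. H3K27me3 was thus higher at FGF6 in ZCCHC8-KO and EZH2 did not pass the rule, with a ratio of 0.969. The highest H3K27me3 score at FGF6 was 8 in each genotype, and the highest EZH2 score 6 in ZCCHC8-KO and 13 in ZCCHC8-WT.

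FGF8 and FGF9 had EZH2 peaks in both genotypes. FGF8, an organiser signal of brain and limb, had 1356 bp of EZH2 peaks in ZCCHC8-KO (5 peaks) and 1029 bp in ZCCHC8-WT (4 peaks), or 6.69% and 5.08% of its window. It ranked 117th for EZH2 in ZCCHC8-KO and 192nd in ZCCHC8-WT, and 3 of its peaks in each genotype overlapped the other. H3K27me3 covered no base of FGF8 in ZCCHC8-KO and 214 bp in ZCCHC8-WT. FGF9, a kidney progenitor and gonad FGF, had 1454 bp of EZH2 peaks in ZCCHC8-KO (5 peaks) and 1111 bp in ZCCHC8-WT (3 peaks), or 3.35% and 2.56%. Its H3K27me3 peaks covered 979 bp in ZCCHC8-KO (5 peaks) and 1536 bp in ZCCHC8-WT (3 peaks), or 2.25% and 3.54%. Neither gene passed the rule for either antibody. The highest scores at FGF9 were 5 in ZCCHC8-KO and 10 in ZCCHC8-WT for H3K27me3, and 9 and 11 for EZH2.

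FGF10, a mesenchymal signal for lung and limb buds, passed the rule for both antibodies. Its H3K27me3 peaks covered 229 bp in ZCCHC8-KO (1 peak) and 1722 bp in ZCCHC8-WT (5 peaks), or 0.231% and 1.74%. Its EZH2 peaks covered 658 bp in ZCCHC8-KO (3 peaks) and no base in ZCCHC8-WT. The single ZCCHC8-KO H3K27me3 peak lay 67097 bp from the start, and the nearest in ZCCHC8-WT 2981 bp from it. FGF10 was lower for H3K27me3 under every alternative processing, and its EZH2 call rested on peaks with a score of at most 6. The highest H3K27me3 score was 5 in ZCCHC8-KO and 9 in ZCCHC8-WT. FGF1, a broadly acting FGF, had no H3K27me3 peak in ZCCHC8-KO and 1138 bp in ZCCHC8-WT (5 peaks), all at least 42839 bp from the start, and 559 bp and 509 bp of EZH2 peaks.

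The other marked paracrine FGF genes had short peaks. FGF18, a cartilage and bone FGF, had 180 bp of EZH2 peaks in ZCCHC8-KO and 189 bp in ZCCHC8-WT. FGF5, which limits hair growth, had 363 bp of EZH2 peaks in ZCCHC8-KO and none in ZCCHC8-WT. FGF4, an FGF of the early embryo, had 191 bp of H3K27me3 peaks in ZCCHC8-KO and none in ZCCHC8-WT. FGF3, needed for the inner ear, had no peak in ZCCHC8-KO and 167 bp of EZH2 peaks in ZCCHC8-WT. FGF4 and FGF3 are neighbours on chromosome 11, and FGF19 next to them is an endocrine FGF.

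FGF23, the bone hormone that makes the kidney excrete phosphate, had the largest covered share of the 49 genes for H3K27me3 in both genotypes. It lies at chr12:4368227-4379712. H3K27me3 peaks covered 5852 bp of its window in ZCCHC8-KO (12 peaks) and 3711 bp in ZCCHC8-WT (7 peaks), or 27.2% and 17.3%. That ranked FGF23 24th of 19974 genes in ZCCHC8-KO and 130th in ZCCHC8-WT. EZH2 peaks covered 790 bp in ZCCHC8-KO (3 peaks) and 198 bp in ZCCHC8-WT (1 peak), or 3.68% and 0.922%. EZH2 was thus higher at FGF23 in ZCCHC8-KO by the rule, and H3K27me3 covered more by a factor of 1.58 without reaching it. The EZH2 call was lost with scores of 7 or more, over the gene body, within 5 kb of the start and with peaks of 250 bp or more. Its widest H3K27me3 peak spanned 1908 bp in ZCCHC8-KO, with the highest score of 12 there, and 1125 bp in ZCCHC8-WT, where the highest score was 11. The highest EZH2 score was 8 in each genotype.

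FGF23 and FGF6 share a stretch of chromosome 12. The 44429 bp between their windows were covered by H3K27me3 peaks at 8.25% in ZCCHC8-KO (10 peaks) and 6.06% in ZCCHC8-WT (8 peaks). The 50 kb beyond FGF6 were covered at 21.3% and 21.6%, and the 50 kb beyond FGF23 at 2.24% and 3.67%. The 2 genes and the gap between them thus had larger H3K27me3 shares in ZCCHC8-KO, while the outer flanks had about the same or smaller ones. Farther out, the CCND2 window had 1170 bp of H3K27me3 peaks in ZCCHC8-KO and 83 bp in ZCCHC8-WT, and 5357 bp and 1647 bp of EZH2 peaks. The DYRK4 window went the other way, with 2564 bp and 5902 bp of H3K27me3 and 179 bp and 1181 bp of EZH2. EZH2 peaks covered 2.28% and 1.32% of the 50 kb beyond FGF6, and 0.421% and 1.55% of the gap. The other endocrine FGFs had little. FGF21, a liver hormone of energy metabolism, had 411 bp of H3K27me3 peaks in ZCCHC8-KO and none in ZCCHC8-WT, and FGF19, the gut signal that lowers bile acid synthesis, had no peak in ZCCHC8-KO and 178 bp of EZH2 peaks in ZCCHC8-WT.

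**Figure D2:**
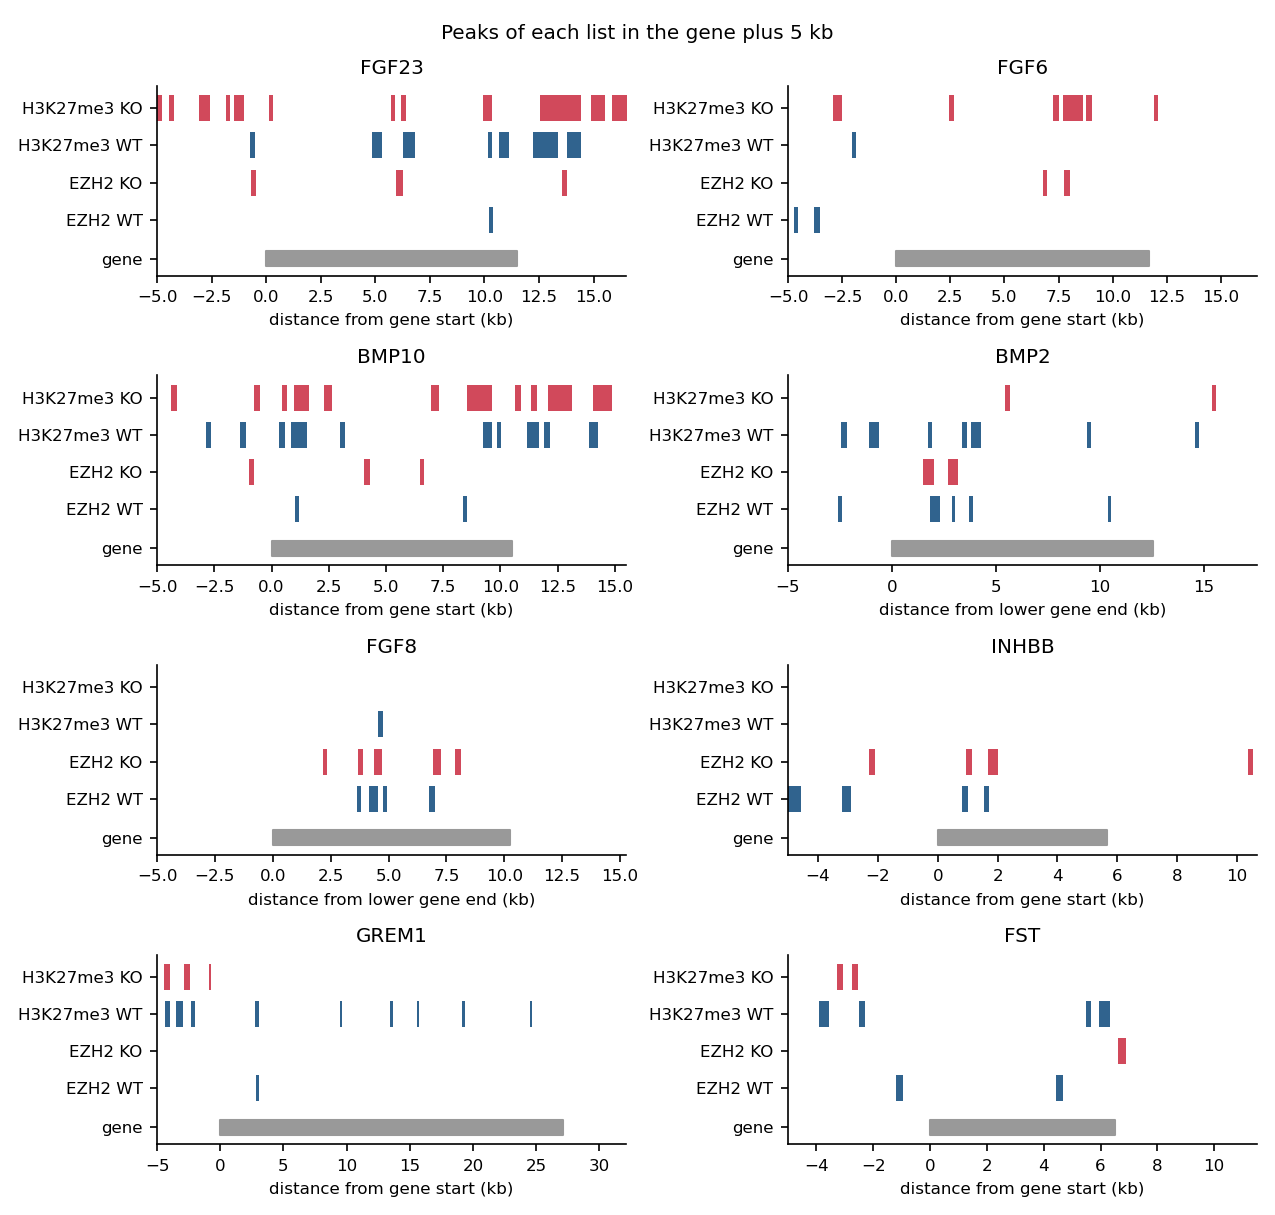
Positions of the peaks of each list over 8 genes with 5 kb on both sides, as distance in kb from the gene start, or from the gene end at the lower coordinate for BMP2 and FGF8. Red blocks are ZCCHC8-KO peaks, blue blocks ZCCHC8-WT peaks and grey bars the genes. FGF23 and BMP10 hold many H3K27me3 peaks in both genotypes, FGF6 has 6 in ZCCHC8-KO against 1 in ZCCHC8-WT, and BMP2 has 2 against 7. INHBB shows EZH2 peaks with no H3K27me3 peak inside the window drawn.

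The promoters of BMP10, FGF23, INHBB and GREM1 are shown. The first pair had the largest H3K27me3 shares of the window, and INHBB had EZH2 but no H3K27me3 peak within its window. GREM1 was lower for H3K27me3 in ZCCHC8-KO. Each runs 5′ to 3′ on the gene's own strand from 250 bases before to 50 bases after the gene start, from RefSeq on GRCh38.p14, with every CpG dinucleotide in capitals. They lie at chr2:68871348-68871647 on the minus strand (BMP10), chr12:4379663-4379962 on the minus strand (FGF23), chr2:120345886-120346185 on the plus strand (INHBB) and chr15:32717754-32718053 on the plus strand (GREM1).
BMP10: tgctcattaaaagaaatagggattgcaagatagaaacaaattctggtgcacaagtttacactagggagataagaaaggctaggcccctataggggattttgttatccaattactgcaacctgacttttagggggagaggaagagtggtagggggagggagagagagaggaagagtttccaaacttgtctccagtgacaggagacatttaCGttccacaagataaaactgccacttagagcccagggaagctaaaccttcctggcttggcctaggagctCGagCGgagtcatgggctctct
FGF23: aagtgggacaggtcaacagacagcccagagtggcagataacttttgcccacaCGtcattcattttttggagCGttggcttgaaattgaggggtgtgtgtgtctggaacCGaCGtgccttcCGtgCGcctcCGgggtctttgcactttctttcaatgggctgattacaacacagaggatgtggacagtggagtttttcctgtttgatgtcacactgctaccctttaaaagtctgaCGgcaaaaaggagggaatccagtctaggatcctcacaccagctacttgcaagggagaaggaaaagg
INHBB: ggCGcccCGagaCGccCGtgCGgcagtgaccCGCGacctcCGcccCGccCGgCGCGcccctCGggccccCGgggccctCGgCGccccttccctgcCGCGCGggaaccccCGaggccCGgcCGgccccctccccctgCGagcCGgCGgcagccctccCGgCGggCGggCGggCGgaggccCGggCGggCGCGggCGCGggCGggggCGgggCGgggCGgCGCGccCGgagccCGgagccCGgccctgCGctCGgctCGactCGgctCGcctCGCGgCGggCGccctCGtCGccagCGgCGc
GREM1: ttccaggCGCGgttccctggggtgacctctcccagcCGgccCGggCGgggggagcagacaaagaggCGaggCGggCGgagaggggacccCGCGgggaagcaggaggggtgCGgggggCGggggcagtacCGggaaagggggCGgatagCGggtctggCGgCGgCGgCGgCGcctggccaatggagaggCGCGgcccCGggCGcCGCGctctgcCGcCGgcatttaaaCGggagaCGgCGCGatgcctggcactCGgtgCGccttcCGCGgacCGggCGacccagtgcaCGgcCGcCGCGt

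CpG-rich sequence is what PRC2 is generally found on at vertebrate promoters, and these 4 genes differ in it. The BMP10 promoter held 3 CpG dinucleotides and that of FGF23 held 8, whereas GREM1 held 42 and INHBB 58. Among 15812 promoters of protein-coding genes in the RefSeq table, 9.7% had fewer CpG dinucleotides than BMP10, 23.6% fewer than FGF23, 92.3% fewer than GREM1 and 99.8% fewer than INHBB. By share of the window, the pair with the most H3K27me3 thus had few CpG dinucleotides, and the gene with the most EZH2 in ZCCHC8-WT had the most of the 37. By covered bases the order differs, since FGF14 and BMP6 had more H3K27me3 bases than BMP10 or FGF23 in ZCCHC8-WT. FGF14, with the most of the 37, had 11 CpG dinucleotides (28.8% of promoters with fewer). BMP6 had 33 (77.2% of promoters with fewer). At least 1 CpG was present in 98.1% of all promoters. The 37 genes with a promoter in that table had a median of 16 CpG dinucleotides (range 1 to 58), against 22 for all promoters. Genes without an entry are BMP2, BMP3, BMP7, FGF4, FGF8, FGF9, FGF16, FGF17, FGF19, FGF20, GDF6 and NOG.

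**Figure D3:**
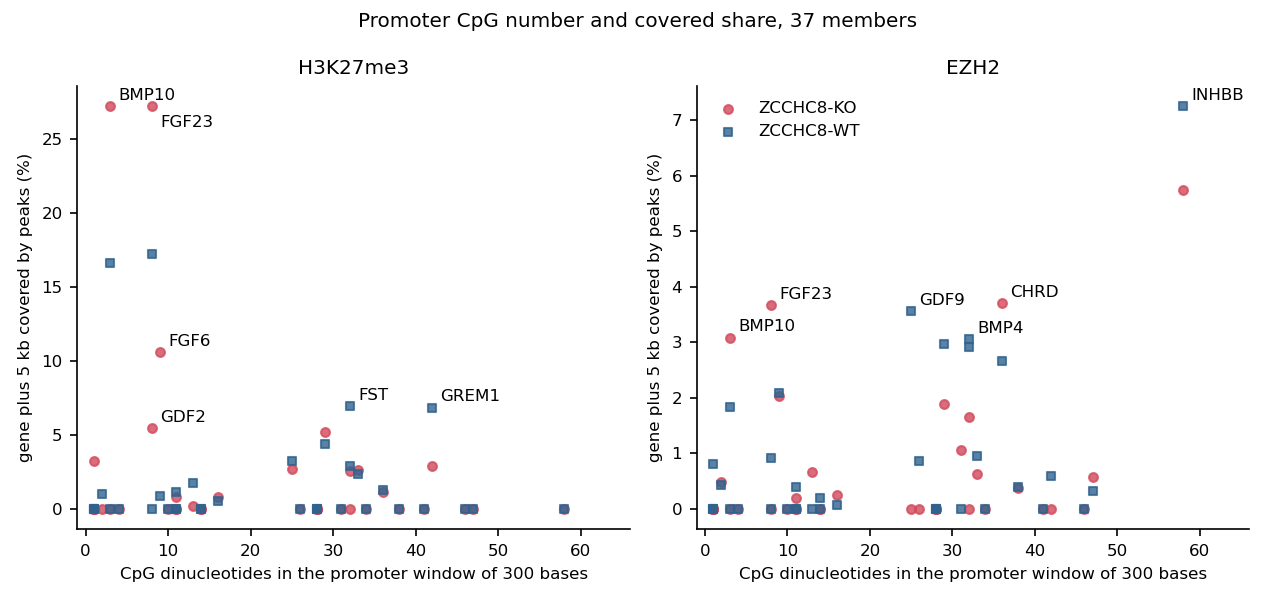
CpG dinucleotides in the promoter window of 300 bases (x axis) against the percent of the gene window covered by H3K27me3 peaks (left) and EZH2 peaks (right) for the 37 genes with a promoter entry. Red circles are ZCCHC8-KO and blue squares ZCCHC8-WT, 1 library each. BMP10 and FGF23 lie at the top left for H3K27me3 with 3 and 8 CpG dinucleotides, and INHBB lies at the far right for EZH2 with 58.

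Some of these promoters had a peak nearby, but none had a peak on it. None of the 37 promoter windows overlapped a peak in any list. Such overlaps were rare among all 15812 promoters, at 0.481% in ZCCHC8-KO and 0.632% in ZCCHC8-WT for H3K27me3, and 0.398% and 0.557% for EZH2. Within 2 kb of the start, H3K27me3 was present at 16.2% of the 37 genes in each genotype, compared with 5.76% and 7.09% of all. EZH2 was present there at 13.5% in ZCCHC8-KO and 18.9% in ZCCHC8-WT, compared with 3.62% and 4.96% of all.

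The share of EZH2 peaks near the gene start was larger in ZCCHC8-WT. In ZCCHC8-KO, 13 of 43 EZH2 peaks lay within 5 kb of the start (30.2%, 17.2 to 46.1), and in ZCCHC8-WT 25 of 49 (51.0%, 36.3 to 65.6). For all genes the shares were 24.1% and 20.9%. With scores of 7 or more the shares for EZH2 were 50% in ZCCHC8-KO and 57.6% in ZCCHC8-WT. Only 9 EZH2 peaks of all 49 genes had such a score in ZCCHC8-KO, against 44 in ZCCHC8-WT. Fewer still lay at genes with a known start, so the 50% rests on very few peaks and cannot be compared. The intervals of the 2 genotypes overlap, and peaks of 1 gene are not independent. For H3K27me3, 28 of 103 peaks in ZCCHC8-KO (27.2%) and 25 of 105 in ZCCHC8-WT (23.8%) lay within 5 kb, compared with 16.4% and 14.3% for all genes. Gene lengths differ between the set and all genes, and their part in these shares was not tested.

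The FGF homologous factors FGF12, FGF13 and FGF14 bind voltage-gated sodium channels rather than FGF receptors. Their genes are the longest here, and FGF12 and FGF14 held many peaks at a low covered share. FGF14 has a window of 701640 bp. Its H3K27me3 peaks covered 5848 bp in ZCCHC8-KO (24 peaks) and 8054 bp in ZCCHC8-WT (29 peaks), or 0.833% and 1.15%. Its EZH2 peaks covered 1321 bp in ZCCHC8-KO (6 peaks) and 2755 bp in ZCCHC8-WT (12 peaks), or 0.188% and 0.393%. EZH2 was thus lower at FGF14 in ZCCHC8-KO, a call lost with lists of equal size, over the gene body and within 5 kb of the start. No H3K27me3 peak of FGF14 overlapped between genotypes, and the EZH2 peak nearest to its start was 268587 bp downstream in ZCCHC8-KO and 1325 bp upstream in ZCCHC8-WT. The highest scores were 7 in ZCCHC8-KO and 11 in ZCCHC8-WT for H3K27me3, and 5 and 9 for EZH2.

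FGF12 has a window of 598152 bp, with 4732 bp of H3K27me3 peaks in ZCCHC8-KO (19 peaks) and 3254 bp in ZCCHC8-WT (13 peaks), or 0.791% and 0.544%. EZH2 peaks covered 1543 bp in ZCCHC8-KO (7 peaks) and 470 bp in ZCCHC8-WT (2 peaks), or 0.258% and 0.0786%. From 250 to 300 kb downstream of the start, FGF12 had 11 of its 19 H3K27me3 peaks in ZCCHC8-KO and 6 of 13 in ZCCHC8-WT, and the others lay elsewhere in its window. EZH2 was higher at FGF12 in ZCCHC8-KO by the rule, and this direction turned round when peaks with a score under 7 were left out. The highest scores were 7 in ZCCHC8-KO and 11 in ZCCHC8-WT for H3K27me3, and 6 and 8 for EZH2. FGF13, on the X chromosome, had no peak in any list and lay 373356 bp from the nearest one.

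**Figure D4:**
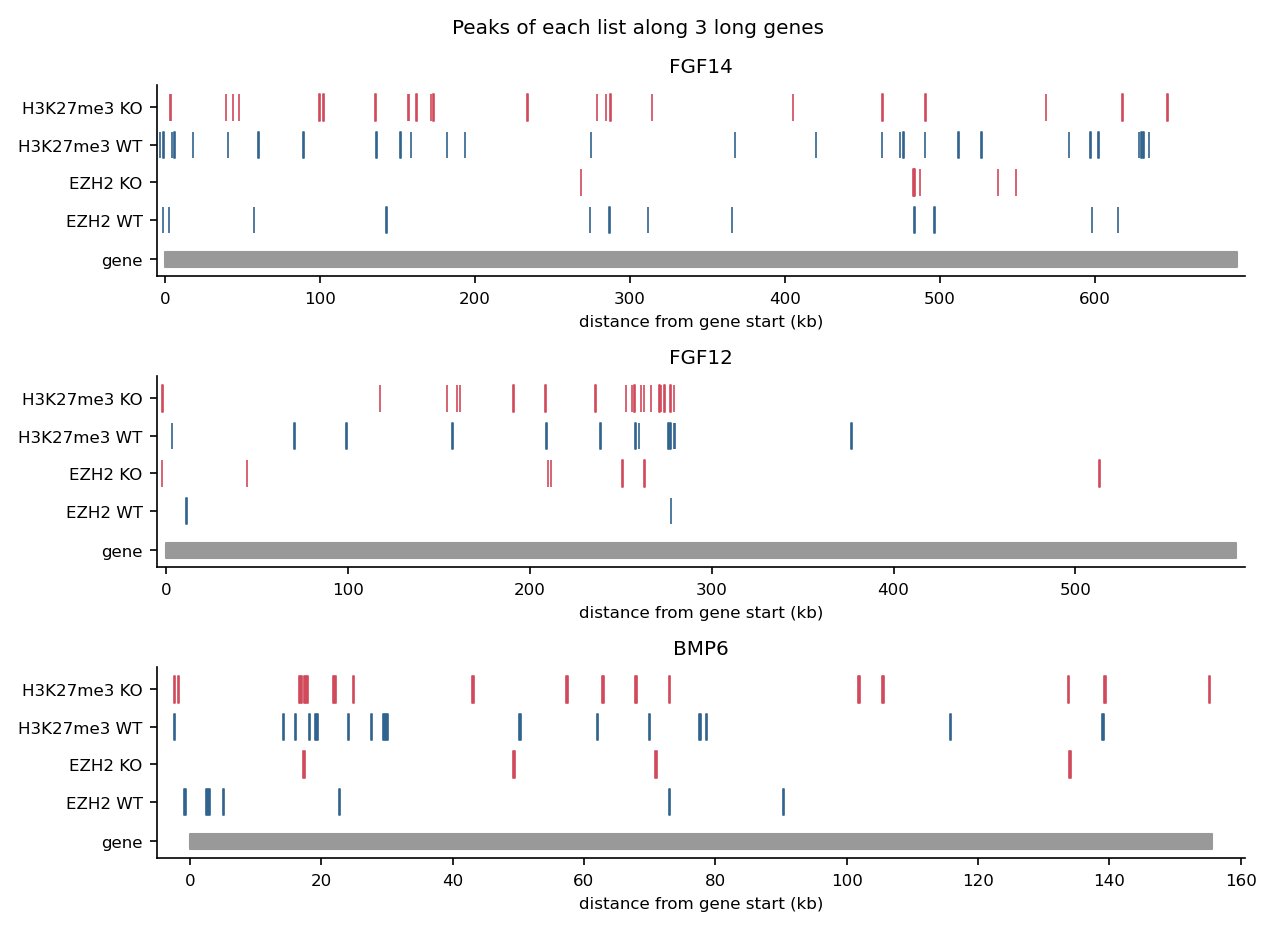
Positions of the peaks of each list along FGF14, FGF12 and BMP6, as distance from the gene start in kb. Red marks are ZCCHC8-KO peaks, blue marks ZCCHC8-WT peaks and grey bars the genes. Peaks of FGF14 are spread along the gene, while FGF12 holds 11 H3K27me3 peaks in ZCCHC8-KO and 6 in ZCCHC8-WT between 250 and 300 kb.

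At these genes, as over all gene windows, most peaks were not at the same place in both genotypes. Of the H3K27me3 peaks, 22 of 120 in ZCCHC8-KO (18.3%) and 22 of 125 in ZCCHC8-WT (17.6%) overlapped a peak of the other genotype by at least 1 bp, against 21.2% and 15.7% for all gene windows. Of the EZH2 peaks, 10 of 57 in ZCCHC8-KO (17.5%) and 10 of 66 in ZCCHC8-WT (15.2%) did so, against 11.1% and 6.53% for all gene windows. BMP10 held 6 and FGF23 held 4 of the shared H3K27me3 peaks, and FGF8 held 3 of the shared EZH2 peaks, with 2 each at BMP2 and INHBB. How many peaks would recur between libraries of the same genotype is unknown with 1 library per group.

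No peak in any list was found for 17 of the 49 genes (34.7%), against 56.9% of all protein-coding genes. They are BMP5, BMP15, FGF2, FGF7, FGF13, FGF16, FGF17, FGF20, FGF22, GDF3, GDF5, GDF7, GDF11, GDF15, NODAL, TGFB1 and TGFB3. The group includes GDF15, a stress-induced hormone whose nearest peak was 193111 bp away, and GDF5, a joint factor, at 200922 bp. The nearest peak to GDF7, a factor of the dorsal spinal cord, was 7238 bp away. In 9 of the 17 the nearest peak of any list was more than 50 kb from the gene. All 3 genes on the X chromosome, BMP15, FGF13 and FGF16, were among the 17, on a chromosome with 272 H3K27me3 peaks in ZCCHC8-KO and 371 in ZCCHC8-WT, and 57 and 149 EZH2 peaks. A missing peak says only that none was called at this depth.

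The rest of the pathway was described with lists of other ligands, modulators, receptors, SMAD genes, FGF receptors, BMP targets and FGF feedback genes, 81 genes in all. H3K27me3 marked 17 of the 81 in ZCCHC8-KO (21.0%) and 24 in ZCCHC8-WT (29.6%), and EZH2 26 (32.1%) and 31 (38.3%). Over all protein-coding genes these shares were 23.2% and 26.1% for H3K27me3, near those of the 81 genes, and 18.4% and 27% for EZH2. By the 2-fold rule H3K27me3 was lower in ZCCHC8-KO at 12 of the 81 (background 6.84%) and higher at 2 (background 3.54%). EZH2 was lower at 6 (background 5.92%) and higher at 2 (background 1.93%), shares near the background. Of the 12 genes lower for H3K27me3, 7 were among the 18 BMP and TGF-beta receptor genes, where 1 was higher. ACVR1C, the receptor gene ALK7, had 4827 bp of H3K27me3 peaks in ZCCHC8-KO and 11242 bp in ZCCHC8-WT. BAMBI, a decoy receptor without a kinase domain, had none in ZCCHC8-KO and 2001 bp in ZCCHC8-WT.

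Smaller lengths were listed at the other receptor genes. H3K27me3 peaks covered no base in ZCCHC8-KO at ACVR1B, ACVRL1, BMPR1B and TGFBR1, against 672, 785, 624 and 736 bp in ZCCHC8-WT. The betaglycan gene TGFBR3 had 202 bp in ZCCHC8-KO and 991 bp in ZCCHC8-WT. The 1 receptor-list gene higher for H3K27me3 was the co-receptor gene RGMA, with 946 bp in ZCCHC8-KO and 407 bp in ZCCHC8-WT. Another co-receptor gene, HJV, had 1341 bp and 967 bp and did not pass the rule. EZH2 was lower at 2 receptor genes, ACVR1C with 178 bp and 779 bp and BAMBI with 198 bp and 816 bp. Among the 8 SMAD genes, which carry the signal to the nucleus, no H3K27me3 peak was listed in ZCCHC8-KO and 2 genes were marked in ZCCHC8-WT, with none past the rule. Of the 7 FGF receptor and co-receptor genes none passed it. KL, the Klotho gene that FGF23 needs for its action on the kidney, had 1258 bp of H3K27me3 peaks in ZCCHC8-KO and 942 bp in ZCCHC8-WT.

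Of 19 other antagonist and modulator genes, H3K27me3 was lower at 3 and higher at none, and EZH2 lower at 2 and higher at 1. LTBP1, which tethers latent TGF-beta to the matrix, had 4745 bp of H3K27me3 peaks in ZCCHC8-KO and 13691 bp in ZCCHC8-WT, and 960 bp and 2326 bp of EZH2 peaks. BMPER, a BMP-binding modulator, had 5960 bp of H3K27me3 peaks in ZCCHC8-KO and 11183 bp in ZCCHC8-WT, and its EZH2 peaks covered 1762 bp and 4871 bp. BMPER lies on chromosome 7, where the ratio of covered length over the whole chromosome was 0.342 for H3K27me3 and 0.408 for EZH2, so a difference at this gene and one of the chromosome cannot be told apart. FGFBP3, which releases FGFs from the matrix, had 1257 bp of H3K27me3 peaks in ZCCHC8-KO and 643 bp in ZCCHC8-WT, and 660 bp of EZH2 peaks in ZCCHC8-KO and none in ZCCHC8-WT. CER1, the Cerberus gene, had 295 bp and 675 bp of H3K27me3 peaks.

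Of 10 BMP target genes, MSX1, MSX2, ID4 and ATOH8 had 500 bp or more in some list. MSX2, a homeobox factor of skull and tooth, had 1841 bp of EZH2 peaks in ZCCHC8-KO and 1140 bp in ZCCHC8-WT, and no H3K27me3 in ZCCHC8-KO against 553 bp in ZCCHC8-WT. MSX1, its relative, had 905 bp and 433 bp of EZH2 peaks, and 330 bp and no base of H3K27me3. ID4, an inhibitor of basic helix-loop-helix factors, had 1172 bp of EZH2 peaks in ZCCHC8-KO and 1795 bp in ZCCHC8-WT, and 930 bp and 1333 bp of H3K27me3. ATOH8 had 324 bp of EZH2 peaks in ZCCHC8-KO and 887 bp in ZCCHC8-WT. Of 11 FGF feedback and target genes, IL17RD, an inhibitor of FGF signalling, had no H3K27me3 peak in ZCCHC8-KO and 808 bp in ZCCHC8-WT, with 201 bp and 721 bp of EZH2 peaks. ETV5, an ETS factor, had 598 bp of H3K27me3 peaks in ZCCHC8-KO and none in ZCCHC8-WT. Of 10 other ligand genes 7 had no peak, against 56.9% of all protein-coding genes, and none passed the rule.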

How the data were processed

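Chromatin from ZCCHC8-KO and ZCCHC8-WT ACHN cells was immunoprecipitated for H3K27me3 and EZH2, and 4 peak lists, 1 per antibody and genotype, were used. The 2 input libraries were not analysed here. Per the submitters' processing notes, cutadapt 1.9.3, Bowtie2 2.2.4 and hg38 were used. The peak caller and its settings are not given in the sources consulted, and neither is the read depth, so the precision and reach of each list are unknown. Peak names in the deposited lists carry 1e-3. The deposited lists have 6 columns, of which the fifth is the peak's length in bp and the sixth the authors' score, which no label or header defines. Scores were used only to describe, filter or rank peaks, and a score may not mean the same in different lists. Identical lines, up to 81 per peak, were counted once.

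Peaks were set against gene windows (gene plus 5 kb on both sides) of the RefSeq gene table (GRCh38.p14), with 1 bp as the smallest overlap. Covered bases, peak numbers and covered shares were computed in Python 3.11.15 (NumPy 2.4.6, pandas 2.3.3, SciPy 1.17.1), and figures drawn in matplotlib 3.10.9. The routines were tested on simulated data. Gene starts came from the promoter table, which holds 37 of the 49 genes. For the other 12, the alternative window near the start was 5 kb around both gene ends. No comparison between genotypes was tested, as each group has 1 library. All 32 genes with a peak are given with their values, the 12 with the most covered bases with peak numbers and highest scores, and the 17 without a peak by name. Of the pathway lists, genes with at least 500 covered bases were taken, of which 1 is not reported here. The genes, lists and rules were chosen with earlier results of these data known. Alternatives changed the score, list size, window, peak width, fold rule and chromosomes. The planned count of genes marked by both antibodies is not reported, because both lists of a genotype share an input.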

Additional observations from a re-analysis of the deposited data

How the results depend on the processing

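No paired analysis was possible because each group has 1 library and the labels carry no replicate numbers. The main counts in ZCCHC8-KO against ZCCHC8-WT were 6 genes lower and 3 higher for H3K27me3, and 3 lower and 4 higher for EZH2. With at least 1000 bp and a 4-fold difference they were 3 and 1 for H3K27me3, and 0 and 0 for EZH2. Counts of genes under the alternatives have no background, because the matching shares of all protein-coding genes are not given here. With scores of 7 or more, H3K27me3 marked 8 and EZH2 6 of the genes in ZCCHC8-KO, 8 genes were lower and 1 higher for H3K27me3, and 6 were lower and 0 higher for EZH2. The covered-length ratios were then 0.416 and 0.264, against 0.347 and 0.263 for all gene windows. In ZCCHC8-KO, 42.9% of H3K27me3 and 50% of EZH2 peaks lay within 5 kb of the start, shares that rest on at most 21 and 9 peaks. A score of 7 lies above the ZCCHC8-KO medians of 6 and 5 and at the ZCCHC8-WT medians. With lists of equal size, 4 genes were lower and 5 higher for H3K27me3, 1 was lower and 6 higher for EZH2, and the H3K27me3 ratio was 1.35, against 0.858 for all gene windows. Over gene bodies, 0 genes were lower and 2 higher for EZH2, and with 20 kb on both sides 5 were lower for EZH2. Within 5 kb of the start, or of both gene ends for the 12 genes without a known start, EZH2 marked 11 genes in ZCCHC8-KO. There 3 genes were lower for H3K27me3 and 1 was higher for EZH2. With peaks of 250 bp or more, H3K27me3 marked 13 genes in ZCCHC8-KO, EZH2 marked 11 in ZCCHC8-WT and 2 genes were higher for EZH2.

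No called gene lies on chromosome 7, so leaving that chromosome out could not change a call. The 16 called differences had 112 values under alternatives, with that one included. Of these, 72 stayed past the rule, 37 no longer passed it without turning round and 3 had the opposite direction. The 3 were H3K27me3 at BMP3 with equal lists, 25 bp more in ZCCHC8-KO, and with scores of 7 or more EZH2 at BMP3 and FGF12, with ZCCHC8-KO minus ZCCHC8-WT differences of -241 and -221 bp. H3K27me3 at BMP2 and FGF10 passed the 2-fold rule in every alternative run. For BMP2, BMP3 and GDF6, which have no known start here, the alternative near the start used both gene ends. The other H3K27me3 calls were lost with scores of 7 or more at FGF1, GDF2 and GDF6, with equal lists at FGF1, over gene bodies at GDF6, with 20 kb at BMP3, FGF1, FGF6 and GDF2, near the start at BMP3, FGF1, FST and GREM1, and with wide peaks at BMP3, FGF1, GDF6 and GREM1. EZH2 calls were lost with scores of 7 or more at BMP4, FGF10 and FGF23, with equal lists at BMP4 and FGF14, over gene bodies at BMP4, FGF10, FGF14, FGF23 and GDF9, near the start at FGF10, FGF12, FGF14, FGF23 and GDF9, and with wide peaks at BMP4, FGF10, FGF12, FGF23 and GDF9. The cause was not tested. Alternatives for genes marked by both antibodies were not run. The ratios without FGF23 and FGF6, or without the 3 FGF homologous factor genes, were added after seeing the data. Small peak numbers per gene and an unknown depth limit every count.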
